A study of Homo sapiens with 15 samples.

Results

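Senescent HT-1080 cells kept in vehicle for 24 h were compared with senescent cells kept in vehicle for 6 h, across all genes. The comparison rests on 6 of the 15 RNA sequencing libraries of the series, chosen by their labels alone, with 3 libraries at each time. HT-1080 cells come from a human fibrosarcoma, and the cells of both groups had expressed a dominant negative mutant of TRF2, the telomere-binding protein encoded by TERF2, for 6 days. Both groups then received the solvent DMSO without drug, so that they differ by label only in the time in vehicle, 6 h or 24 h. All cells were grown in DMEM with 10% tet-free serum at 5% oxygen. The other libraries are 3 of cycling HT-1080 cells without the mutant in DMSO, labelled 6 h, and 3 each of senescent cells in 1 uM GNF-7, a kinase inhibitor, for 6 h and 24 h. The model is a single tumour cell line driven into senescence by telomere uncapping. The labels give neither the clock time of collection nor any change of medium, so time in vehicle, time since the medium was last changed, time of day and time since TRF2 was blocked cannot be told apart in this comparison.

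A vehicle control collected at a pair of times reads what a culture does with no drug. Serum and fresh medium are known to induce immediate early genes (FOS, JUN and NR4A families) within an hour and to reset the circadian clock of cultured cells, in which BMAL1 and CLOCK activate the PER, CRY, REV-ERB (NR1D1, NR1D2) and DBP genes through E-boxes. As cultures use up glucose and serum lipids, genes of sterol synthesis under SREBP2 and genes under HIF-1 can respond. Senescent cells secrete cytokines, proteases and growth factors, the senescence-associated secretory phenotype (SASP), many of them under NF-kB, whose best known feedback targets include TNFAIP3, BIRC3 and TRAF1.

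Levels are in CPM, which scale each gene's count by the effective size of its library and not by gene length, so they are compared between libraries and not between genes. Total counts were 26809978 to 32116534 in the 6 libraries. TERF2, which checks the labels, was at 278, 293 and 291 CPM at 6 h and 222, 212 and 226 CPM at 24 h. Cycling cells held 58.2 ± 3.65 CPM of it (SD, n = 3). TERF2 was thus itself lower at 24 h, by -0.385 on the log2 scale (SE 0.0399, edgeR adjusted p 1.90e-11). Its call was kept in 17 of 17 alternative analyses. Reads of the mutant and of the cells' own TERF2 are summed, so which of them fell was not tested. The summed level of 9 mesenchymal markers that include VIM, CD44 and FN1 ranged from 8642 to 9190 CPM, here scaled by total counts, at 6 h and from 7981 to 8828 at 24 h, with 1 of them, THY1, at 0 counts in all 6 libraries. Of 23 markers of epithelial, endothelial, blood, neural, muscle and fat cells, 11 passed the filter on low counts, which used all 15 libraries. Of these 0 were called, against 18.5% of all genes tested. Summed levels at 6 h lay between 0.482 CPM (lowest, 5 blood markers) and 8.95 CPM (highest, 4 muscle and fat markers), scaled by total counts. At such levels calls were unlikely, so 0 calls is a weak check. Counts of mitochondrially encoded genes made up 11.2%, 12.4% and 11.7% of the 6 h libraries and 15.1%, 18.7% and 17.0% of the 24 h libraries, a difference in means of 5.17 percentage points (exact permutation test, 2-sided, p = 0.1, the smallest p that 3 against 3 libraries allow). The labels call the libraries biological replicates without saying that they came from separate cultures, so p-values measure the spread between these libraries.

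Many genes differed between the times, most of them by little. Of 18563 genes tested with the edgeR quasi-likelihood test, 3443 were called at a Benjamini-Hochberg adjusted p under 0.05 (18.5% of those tested). Of these, 1719 were higher at 24 h (9.26%) and 1724 were lower (9.29%). The median called gene differed 1.18-fold, and 91.2% of the called genes differed by less than 1.5-fold. A change of at least 2-fold was reached by 56 called genes that rose (0.302%) and 43 that fell (0.232%), at a median level of 0.557 CPM. Only 3 of those that rose and 5 of those that fell had a mean of at least 5 CPM over the 6 libraries. The replicates did not overlap between the times for 6102 genes (32.9%), of which 3229 were called. The plot of difference against level shows that abundant genes were called at smaller differences than scarce ones. Protein-coding genes alone were called higher for 11.4% and lower for 12.3%. With a filter at a mean of 5 CPM, 1853 rose and 1716 fell of 11234 genes tested. Counts for gene lists below are to be read beside these shares. Most lists hold coding genes, for which the shares over all genes are a low reference. Scaling by total counts, with no factor for composition, shifted the median over all genes tested from 0.0088 to -0.10 (log2) and the split to 627 higher and 4392 lower, so all directions below are relative to the median gene.

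Among the 12 largest falls at 5 CPM or more were BMP6, NOX4 and TNFRSF19, and TNFAIP3, BIRC3 and TRAF1, known as targets of NF-kB. These 12 were picked from called genes whose replicates did not overlap between the times, so lack of overlap is no separate result for them. BMP6, a ligand of the bone morphogenetic protein family (ENSG00000153162, GRCh38 chromosome 6, 7726797 to 7881422, plus strand), was at 16.3, 15.3 and 17.3 CPM at 6 h and at 6.13, 4.90 and 5.15 CPM at 24 h. Every 24 h library lay below every 6 h library, and also below the cycling libraries at 9.01 ± 0.700 CPM. The fall was 3.01-fold, or -1.59 on the log2 scale (SE 0.105, edgeR adjusted p 6.86e-19). NOX4, a catalytic NADPH oxidase that makes hydrogen peroxide (ENSG00000086991, GRCh38 chromosome 11, 89324356 to 89498187, minus strand), was at 12.5, 9.79 and 11.6 CPM at 6 h and 5.04, 4.30 and 4.37 CPM at 24 h. Its 24 h level was again below the cycling level of 8.83 ± 0.795 CPM, and the log2 fold change was -1.30 (SE 0.124, adjusted p 1.15e-12). TNFRSF19, also called TROY, a receptor of the tumour necrosis factor family, was at 16.9, 14.8 and 14.2 CPM at 6 h and 6.09, 6.56 and 5.57 CPM at 24 h, with no overlap (-1.33, SE 0.111, adjusted p 1.02e-14). For TNFRSF19 the 24 h level stayed above that of cycling cells, 3.00 ± 0.392 CPM.

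TNFAIP3, which encodes the NF-kB inhibitor A20, was at 24.4, 25.4 and 24.9 CPM at 6 h and 13.7, 12.8 and 13.1 CPM at 24 h, close to the 11.3 ± 1.5 CPM of cycling cells (-0.92, SE 0.0865, edgeR adjusted p 8.31e-13). BIRC3, a ubiquitin ligase that restrains cell death, fell from 12.5 to 6.53 CPM (-0.94), and TRAF1, an adaptor of tumour necrosis factor receptors, from 16.7 to 7.73 CPM (-1.10). These 3 genes were at near equal levels among the replicates, and their 24 h libraries did not overlap the 6 h libraries, which their choice required. The mitochondrial superoxide dismutase SOD2, itself known to respond to NF-kB, fell from 248 to 163 CPM (-0.61). IL6, the interleukin most used as a mark of the SASP, was at 3.77, 4.20 and 3.57 CPM at 6 h and 1.44, 1.27 and 1.01 CPM at 24 h, against 0.529 ± 0.0536 CPM in cycling cells. The fall of IL6, -1.62 on the log2 scale (SE 0.198, adjusted p 3.11e-09), was the largest among the SASP genes tested. No list of NF-kB targets was counted, so these genes do not give the direction of such targets as a set. SASP genes, many of them under NF-kB too, went both ways: of 38 tested 12 rose and 9 fell. IL1B (0.47), CCL2 (0.40) and CCL20 (0.77) were among those that rose.

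The other large falls among genes of at least 5 CPM were GRAMD1B (-1.07), which encodes a carrier of cholesterol from the plasma membrane to the endoplasmic reticulum, CEMIP (-0.95), a hyaluronan-degrading factor, SLC7A5 (-0.90), the large neutral amino acid transporter, FAM107B (-0.88), BMAL1 (-0.83), a core clock factor, and IL7R (-0.82), the interleukin 7 receptor. GRAMD1B was at 130.1, 133 and 125 CPM at 6 h and 59.4, 64.5 and 60.9 CPM at 24 h. It did not overlap between the times, as the choice required, and neither did CEMIP, which went from 122 to 63.2 CPM. The insulin-like growth factor receptor IGF1R fell from 96.6 to 57.2 CPM (-0.75).

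**Figure D1:**
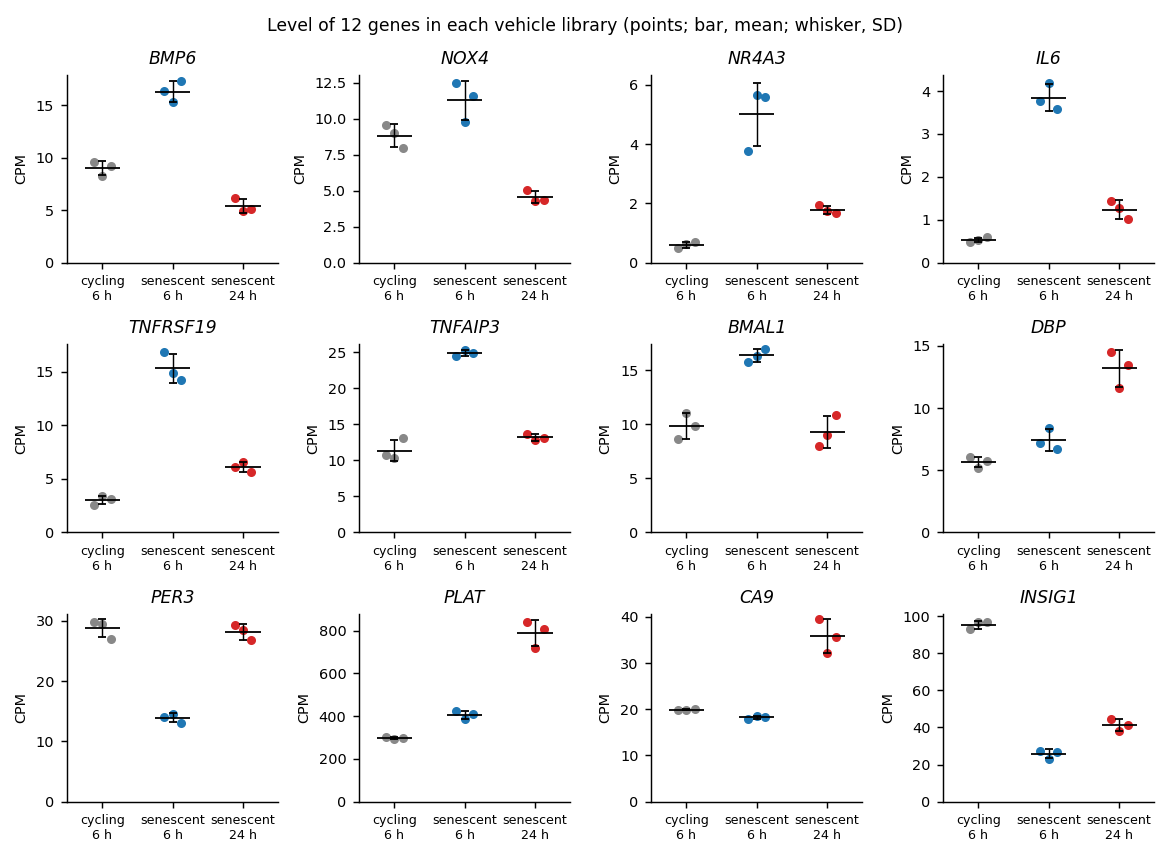
CPM of 12 genes in each of 9 vehicle libraries: cycling 6 h (grey), senescent 6 h (blue) and senescent 24 h (red). Points are libraries, bars the means and whiskers the SD (n = 3). In all 12 panels the senescent 6 h and 24 h libraries do not overlap. BMP6, for example, is at 15.3 to 17.3 CPM against 4.90 to 6.13 CPM. For panels of genes from the 12 largest falls or rises, lack of overlap was required for the choice.

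Among the 12 largest rises at 5 CPM or more were PLAT, CA9, TXNIP, VSIR, TLCD2 and DENND2A. These 12 too were picked from called genes whose replicates did not overlap between the times. PLAT, tissue plasminogen activator, was at 423, 386 and 412 CPM at 6 h and 840.2, 718 and 807 CPM at 24 h with no overlap (0.95, SE 0.0463, edgeR adjusted p 6.10e-16). CA9, a carbonic anhydrase known as a HIF-1 target, was at 17.9, 18.6 and 18.3 CPM at 6 h and 39.6, 32.2 and 35.7 CPM at 24 h (0.97, SE 0.0768, adjusted p 1.21e-15). The 6 h level of CA9 was near that of cycling cells, 19.9 ± 0.0923 CPM, so that only the 24 h libraries stood apart. TXNIP, a thioredoxin-binding arrestin induced by glucose metabolites, was at 59.9, 60.6 and 56.6 CPM at 6 h and 109, 106 and 104 CPM at 24 h (0.85, adjusted p 9.51e-23). It was already higher at 6 h than in cycling cells, at 17.8 ± 0.759 CPM. VSIR, an immune checkpoint protein, rose from 11.9 to 21.6 CPM (0.86), TLCD2, a membrane lipid protein gene, from 5.58 to 10.4 CPM (0.90) and DENND2A from 3.73 to 6.68 CPM (0.84).

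Of the rest of the 12 largest rises, 2 were the clock genes PER3 and DBP, and 4 were genes without a settled protein product or with near-identical copies. SSPOP rose from 12.1 to 24.8 CPM (1.04) and was at 1.32 ± 0.522 CPM in cycling cells. LINC02263 rose from 4.23 to 7.77 CPM (0.88). LDHAP7 (0.95) is a pseudogene of LDHA, which also rose, and reads of such copies cannot be told apart with certainty. RN7SL1, the RNA of the signal recognition particle, was at 4.34, 5.97 and 4.27 CPM at 6 h and 10.9, 13.2 and 12.6 CPM at 24 h (1.33, SE 0.385, adjusted p 0.0363). It has near-identical copies and lacks a poly(A) tail, its call was lost in 9 of 17 alternative analyses, and it is uncertain.

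Clock genes were called in both directions. Of 24 clock genes tested out of 27, 6 rose and 5 fell, and the median log2 fold change was 0.01, against 0.0088 over all genes. With total counts 5 rose and 10 fell, and without 6 h replicate 3 the counts were 6 and 3. PER3, a period gene (ENSG00000049246, GRCh38 chromosome 1, 7784320 to 7845177, plus strand), was at 14.1, 14.6 and 13.1 CPM at 6 h and 29.3, 28.4 and 26.7 CPM at 24 h (1.02, SE 0.0742, edgeR adjusted p 4.53e-17). Its 24 h level was close to that of cycling cells, 28.8 ± 1.53 CPM, and the 6 h libraries were the ones that stood apart. DBP, a PAR bZIP output factor, was at 7.22, 8.40 and 6.69 CPM at 6 h and 14.5, 11.6 and 13.4 CPM at 24 h (0.83, adjusted p 8.46e-09). TEF, of the same factor family, was at 11, 11.1 and 11.9 CPM at 6 h and 18.3, 14.8 and 16.6 CPM at 24 h (0.55, adjusted p 2.26e-06), against 16.7 ± 0.246 CPM in cycling cells. The third PAR bZIP gene, HLF, was not called (0.088).

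On the activator side, BMAL1, the partner of CLOCK (ENSG00000133794, GRCh38 chromosome 11, 13276652 to 13387266, plus strand), was at 15.8, 16.4 and 17.0 CPM at 6 h and 7.94, 8.96 and 10.8 CPM at 24 h (-0.83, SE 0.108, edgeR adjusted p 2.41e-08). BMAL2 fell from 33.7 to 28.8 CPM (-0.23), and CLOCK itself was at 39.0 and 35.8 CPM and was not called (adjusted p 0.151). Among repressors, CIART (0.54), BHLHE41 (0.37), encoding DEC2, and NR1D2 (0.30), encoding REV-ERB beta, rose. BHLHE40 (-0.56), encoding DEC1, NFIL3 (-0.46), which competes with DBP for D-boxes, and CRY1 (-0.27) fell. The paralogues BHLHE40 and BHLHE41 thus moved apart: BHLHE40 was at 75.0, 80.9 and 79.0 CPM at 6 h and 51.8, 52.3 and 54.9 CPM at 24 h, and BHLHE41 at 9.67, 10.5 and 10.2 and 13.3, 12.9 and 12.9 CPM. PER1 (-0.08), PER2 (-0.21), CRY2 (0.077) and NR1D1 (0.023) were not called, so the period and REV-ERB genes did not pass together. The CRY1 call, with replicates that overlap, was lost in 4 of 17 alternative analyses, and that of BMAL2 in 2. Of 5 kinases and ligases of the clock tested, including CSNK1D, 0 were called. Over all genes 18.5% were, and 5 genes are too few to tell these shares apart.

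**Figure D2:**
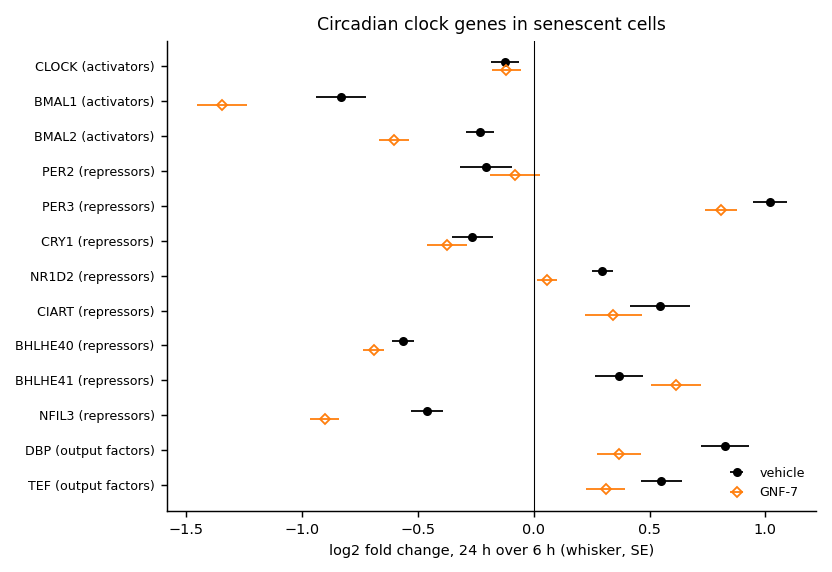
Log2 fold change, 24 h over 6 h, of 13 clock genes in vehicle (black circles) and in GNF-7 (orange diamonds), by role, with SE as whiskers. PER3, DBP and TEF lie right of 0 and BMAL1, BHLHE40 and NFIL3 left of 0 in both. CLOCK (-0.13) and PER2 (-0.21) were not called in vehicle.

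The promoters of the clock genes that were called were read for the E-box, CACGTG, the site of CLOCK and BMAL1, because this is the sequence through which the loop acts. The windows are RefSeq promoters (GRCh38.p14), 250 bases before to 50 after each gene's start, read on both strands. Of 35116 such windows in the genome 7.26% hold at least 1 E-box, and 8.77% of genes have it in at least 1 of their windows. Of the 6 clock genes that rose, 4 hold it, and of the 5 that fell, 1 does, namely BHLHE40. Of 10 clock genes with an entry that were not called, 1 holds it, namely PER1. The stretches around the E-boxes are printed 5′ to 3′ on the gene's strand, with E-boxes in capitals, and end before the start of transcription.
CIART (chr1:150282401-150282526, plus strand): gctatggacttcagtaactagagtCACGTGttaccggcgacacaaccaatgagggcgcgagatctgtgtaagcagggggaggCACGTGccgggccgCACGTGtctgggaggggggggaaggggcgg
NR1D2 (chr3:23945942-23946045, plus strand): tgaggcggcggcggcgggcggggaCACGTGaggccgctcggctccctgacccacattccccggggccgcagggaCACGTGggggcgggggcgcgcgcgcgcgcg
TEF (chr22:41367236-41367289, plus strand): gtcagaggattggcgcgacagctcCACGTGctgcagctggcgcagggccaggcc
BHLHE41 (chr12:26125056-26125109, minus strand): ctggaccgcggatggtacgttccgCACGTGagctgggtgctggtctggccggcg
BHLHE40 (chr3:4979187-4979221, plus strand): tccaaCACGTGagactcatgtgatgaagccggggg
CIART holds 3 E-boxes that begin 129, 71 and 57 bases before its start, and NR1D2 holds 2, at 155 and 105 bases. The TEF and BHLHE41 windows hold 1 each, at 195 and 48 bases. The window of BHLHE40, which fell, also holds 1, at 245 bases, and the letters CACGTG are not in the windows of PER3, DBP or BMAL1, the genes that moved most. The D-box letters TTACGTAA, a palindrome like the E-box, were in the window of 1 of the 21 tested clock genes with a promoter entry, PER2, and in 0.125% of all windows.

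Of 39 BMP pathway genes tested out of 50, 2 rose (5.13%) and 7 fell (17.9%), with a median of -0.05. Over all genes the shares were 9.26% and 9.29%, and 30 of the 39 were not called. With total counts 0 rose and 16 fell. Without 6 h replicate 3, 24 h replicate 1 or 24 h replicate 3 the counts were 0 and 7, and without 6 h replicate 2 they were 1 and 8. Among the other ligands, BMP1, a protease named with them, rose from 151 to 166 CPM (0.13), a call lost in 6 of 17 alternative analyses, and GDF15, a stress hormone of the wider family, fell from 1001 to 877 CPM (-0.19). Of 9 receptors tested, which include BMPR1A, BMPR2 and ACVR1, 0 were called. The direct targets ID3 and ID1, inhibitors of basic helix-loop-helix factors, fell: ID3 was at 139.5, 137 and 132 CPM at 6 h and 98.3, 92.6 and 99.1 CPM at 24 h (-0.50, edgeR adjusted p 4.22e-14), and ID1 was at 43.9, 43.4 and 44.9 and 39.7, 36.1 and 38.4 CPM (-0.21, adjusted p 0.00761). SMAD6, an inhibitor that BMP signals induce, fell from 11.2 to 8 CPM (-0.48), the signal carrier SMAD5 by less (-0.20), and CRIM1, a binder of BMPs, by -0.18. NOG, which encodes the secreted inhibitor noggin, was at 34.9, 24.1 and 30.5 CPM at 6 h and 43.1, 32.3 and 39.3 CPM at 24 h (0.36, adjusted p 0.0203), with overlapping replicates and a call lost in 6 of 17 alternative analyses.

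Genes of the TGF-beta and activin pathway were called in both directions. Of 34 tested, 8 rose (23.5%, against 9.26% over all genes) and 14 fell (41.2%, against 9.29%), with a median of -0.08. With total counts 5 rose and 18 fell. Of 11 signal and target genes, 5 fell and 2 rose. NOX4 (-1.30), described above, was placed in this group too and is among those falls. THBS1, thrombospondin 1, an activator of latent TGF-beta, was at 834, 771 and 794 CPM at 6 h and 519.6, 445 and 482 CPM at 24 h (-0.73, edgeR adjusted p 4.30e-07). CCN2, connective tissue growth factor, fell from 243 to 151 CPM (-0.68), PMEPA1 and SMAD7, both feedback inhibitors, by -0.63 and -0.60, and SKIL, a repressor of SMADs, by -0.39. Of the activin genes, INHBA, the activin A subunit, fell from 12.4 to 8.85 CPM (-0.49) and FST, follistatin, which binds activin, from 25.7 to 17.5 CPM (-0.55). The receptor gene TGFBR2 went the other way and rose (0.26).

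Of 10 NADPH oxidase genes tested 1 fell, NOX4, and 1 rose, RAC2, a GTPase partner of phagocyte oxidases (0.18), close to the shares over all genes (9.29% and 9.26%). The RAC2 call was lost with total counts, and 2 members rose without 6 h replicate 1 or 6 h replicate 2 and 3 without 24 h replicate 2 or with a filter at 5 CPM. Among catalytic subunits only NOX4 and DUOX2 passed the filter on low counts. CYBB, NOX3 and DUOXA2 had 0 counts in all 6 libraries, and NOX1, NOX5, DUOX1, NCF1 and NCF4 had at most 8 in any. CYBA, the partner subunit of NOX4, was near 0 at both times (means of 0.166 and 0.0622 CPM), had a log2 fold change of -1.42 and was not called (adjusted p 0.287).

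Of 30 immediate early genes tested out of 33, 13 fell, 2 rose and 15 were not called (median -0.27). Only 1 rose with total counts or without 6 h replicate 2, 6 h replicate 3, 24 h replicate 2 or 24 h replicate 3. NR4A3, an orphan nuclear receptor of the NR4A family (ENSG00000119508, GRCh38 chromosome 9, 99821855 to 99866891, plus strand), was at 3.77, 5.65 and 5.58 CPM at 6 h and 1.95, 1.73 and 1.66 CPM at 24 h, against 0.596 ± 0.104 CPM in cycling cells. The first 6 h replicate was lower than the other two, and all 3 lay above the 24 h libraries (-1.48, SE 0.168, edgeR adjusted p 3.12e-10). Its paralogue NR4A1 was at 5.13, 5.81 and 4.99 CPM at 6 h and 2.07, 2.61 and 2.44 CPM at 24 h (-1.17, adjusted p 5.81e-08), and NR4A2 fell by less, from 15.7 to 11.2 CPM (-0.49). Cycling cells held 1.74 ± 0.378 CPM of NR4A1 and 2.97 ± 0.528 CPM of NR4A2. DUSP1, a MAP kinase phosphatase, fell from 40.9 to 25.2 CPM (-0.69), and the factor genes ATF3, FOSL1 and JUN by -0.34, -0.34 and -0.25. JUND, an AP-1 member linked to restraint of growth, rose from 60.1 to 88.4 CPM (0.56), and so did IER2 (0.14), a call lost in 7 of 17 alternative analyses.

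Of 22 genes of ERK feedback and output tested, 0 rose and 11 fell (median -0.17), and 17 fell with total counts. HBEGF, a ligand of the EGF receptor, was at 188, 177 and 184 CPM at 6 h and 129, 121 and 126 CPM at 24 h (-0.55, edgeR adjusted p 4.46e-17). The ERK phosphatases DUSP5 and DUSP4 fell by -0.34 and -0.23, the feedback inhibitor SPRY4 by -0.37 and the target factors ETV1, ETV4, ETV5 and MYC by -0.40, -0.36, -0.19 and -0.28. These differences were smaller than 1.5-fold for each gene of the list, HBEGF included. ETV4 was at 10.4, 14.8 and 11.3 CPM at 6 h and 8.71, 9.38 and 10.5 CPM at 24 h, with overlapping replicates, against 63.0 ± 1.38 CPM in cycling cells. YAP targets fell as well, 9 of 13 tested with 0 higher (median -0.29), ANKRD1 from 80.3 to 52.8 CPM (-0.60) and AMOTL2 from 213 to 159 CPM (-0.42). CCN2 (-0.68), named above with the TGF-beta genes, is also among the YAP targets that fell. THBS1 is often counted as a YAP target too but is not in this list. SRF targets were called in both directions, 5 higher and 4 lower of 13. With total counts 2 of the 26 YAP and SRF targets rose and 19 fell.

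Of 27 genes of sterol synthesis and uptake tested out of 28, 18 rose and 0 fell (median 0.30). They comprised 14 of 20 enzymes of synthesis and 4 of 7 genes of uptake and control. INSIG1, which retains SREBP in the endoplasmic reticulum and is itself a target of it (ENSG00000186480, GRCh38 chromosome 7, 155297776 to 155310235, plus strand), was at 27.6, 23.1 and 26.8 CPM at 6 h and 44.5, 38.0 and 41.6 CPM at 24 h (0.68, SE 0.0632, edgeR adjusted p 6.23e-13). Cycling cells were far higher, at 95.4 ± 2.23 CPM. STARD4, a cholesterol carrier, rose from 25.8 to 38.4 CPM (0.57), the enzyme genes MSMO1, HMGCS1 and FDFT1 by 0.53, 0.46 and 0.40 on the log2 scale, and the master regulator SREBF2 by 0.23. For each of these 6 genes the 24 h libraries lay between those of senescent cells at 6 h and those of cycling cells, as for HMGCS1 at 46.1, 63.4 and 139 CPM.

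Of 7 genes of sterol efflux 1 was called (14.3% lower, against 9.29% over all genes), too few to give a direction. It was ABCA1, a cholesterol exporter, which fell from 29.2 to 21.7 CPM (-0.42). In fatty acid synthesis the calls were split, 4 higher (22.2%, against 9.26% over all genes) and 5 lower (27.8%, against 9.29%) of 18 tested. SCD, the stearoyl-CoA desaturase, rose (0.41) and FASN, fatty acid synthase, fell (-0.14). The sterol regulatory element was searched as TCACNCCAC on both strands. It was in the windows of 1.13% of RefSeq promoters and, of 13 sterol genes that rose and have an entry, in that of SREBF2 alone, which is shown with the element in capitals.
SREBF2 (chr22:41832948-41833004, plus strand): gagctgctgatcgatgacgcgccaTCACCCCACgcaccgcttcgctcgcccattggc

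Of 41 genes of glycolysis and the hypoxia response tested out of 42, 23 rose, 6 fell and 12 were not called (median 0.16). GAPDH was at 4005, 3994 and 3991 CPM at 6 h and 5364, 5084 and 5404 CPM at 24 h (0.40, edgeR adjusted p 1.00e-15), and PGK1, LDHA, TPI1 and ALDOC, of the same pathway, rose by 0.38, 0.36, 0.35 and 0.57 on the log2 scale. Of 23 genes of glycolysis 13 rose and 3 fell, and of 18 hypoxia targets 10 rose and 3 fell. Besides CA9, NDRG1, a stress-induced growth suppressor, rose from 425 to 566 CPM (0.41). STC1, stanniocalcin 1, often placed among hypoxia targets, fell from 1103 to 699.7 CPM (-0.66), against 665 ± 12.7 CPM in cycling cells. With total counts 14 genes of the list rose and 11 fell, and GAPDH, PGK1, LDHA, TPI1, ALDOC, NDRG1 and CA9 remained higher.

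Of 47 interferon-stimulated genes tested out of 52, 19 rose, 1 fell and 27 were not called (median 0.15). Without 24 h replicate 2 the counts were 12 and 1, and without 6 h replicate 1 they were 14 and 0. IFIT1, which binds foreign RNA caps, was at 16.3, 19.0 and 19.9 CPM at 6 h and 22.0, 31.4 and 26.1 CPM at 24 h (0.52, SE 0.0895, edgeR adjusted p 1.00e-05), against 6.32 ± 0.218 CPM in cycling cells. IFIT3 (0.33), the ubiquitin-like ISG15 (0.35), IFI6 (0.37) and the membrane proteins IFITM3 (0.35) and IFITM2 (0.35) rose by similar amounts. ISG15 was at 22.3, 22.7 and 22.0 CPM at 6 h and 28.1, 28.7 and 28.3 CPM at 24 h, and replicates of a group lay closer together than the groups. IRF9, a DNA-binding factor of the interferon response, rose from 3.98 to 5.92 CPM (0.57), a call lost in 3 of 16 alternative analyses. TAP1, a peptide transporter of antigen presentation, was the 1 that fell (-0.20). With total counts 10 rose and 4 fell.

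The promoters of interferon genes were read for the core of the interferon-stimulated response element, GAAANNGAA, the site of the complex that holds IRF9. The windows of 8.11% of RefSeq promoters hold it. Of 16 interferon genes that rose and have an entry 12 hold it, of 18 with an entry that were not called 12 do, and so does TAP1. The stretches of 4 of the named genes that rose are printed with the element in capitals, on the gene's strand, where the reverse complement reads TTCNNTTTC.
IFIT1 (chr10:89392484-89392553, plus strand): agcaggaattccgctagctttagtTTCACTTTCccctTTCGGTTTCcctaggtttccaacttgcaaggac
ISG15 (chr1:1013360-1013428, plus strand): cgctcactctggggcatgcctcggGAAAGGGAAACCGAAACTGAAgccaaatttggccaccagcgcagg
IFI6 (chr1:27672253-27672372, minus strand): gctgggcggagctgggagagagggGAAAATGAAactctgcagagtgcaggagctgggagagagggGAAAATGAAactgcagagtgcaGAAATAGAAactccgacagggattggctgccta
IFITM3 (chr11:320863-320936, minus strand): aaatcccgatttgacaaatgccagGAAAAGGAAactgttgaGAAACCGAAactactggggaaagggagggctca
IFIT1 and IFITM3 hold 2 copies each, IFI6 holds 3 spread over its window, and ISG15 holds 3 that overlap.

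CDKN1A, which encodes the cell cycle inhibitor p21, was at 501, 510.1 and 492 CPM at 6 h and 551, 559.5 and 569 CPM at 24 h (0.16, edgeR adjusted p 3.03e-04). The CDKN1A call was lost in 1 of 17 alternative analyses, over which its lowest log2 fold change was 0.049. Of 30 p53 targets tested, 11 rose and 2 fell (median 0.04), and with total counts 3 rose and 10 fell. MKI67, a proliferation mark, was at 146, 153 and 148 CPM at 6 h and 123, 130.4 and 122 CPM at 24 h (-0.25, adjusted p 3.20e-05), far below the 509 CPM of cycling cells at both times. Of 52 proliferation genes 17 fell and 2 rose (median -0.09), and 10 of the 17 were genes of mitosis. Without 6 h replicate 3 the falls were 11, without 24 h replicate 1 there were 13 falls and 1 rise, and with total counts 32 fell and 0 rose. Of 38 SASP genes tested 12 rose and 9 fell (median 0.05). Besides IL6, CXCL8, a neutrophil chemokine, fell from 9.33 to 6.67 CPM (-0.48). IL1B, interleukin 1 beta, rose from 115 to 159 CPM (0.47), CCL2, a monocyte chemokine, from 32.7 to 43.0 CPM (0.40), CCL20 by 0.77, and IGFBP6, a binder of insulin-like growth factors, from 72.5 to 125 CPM (0.78). IL6 and IL1B, both interleukins of the SASP, thus went in opposite directions with no overlap between the times.

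Of 55 genes of the integrated stress response tested, 20 fell and 3 rose (median -0.09). With total counts 34 fell and 1 rose, and without 24 h replicate 2 the counts were 21 and 1. SLC7A5 was at 169, 159 and 159 CPM at 6 h and 86.1, 87.5 and 88.1 CPM at 24 h (-0.90, edgeR adjusted p 2.46e-27), and its heavy chain partner SLC3A2 fell by less (-0.30), as did the cationic amino acid transporter SLC7A1 (-0.36). The serine synthesis enzymes PHGDH and PSAT1 fell by -0.31 and -0.31, and CTH, which makes cysteine, by -0.81. EIF2AK4, which encodes the kinase GCN2, was at 120.1, 122 and 124 CPM at 6 h and 118, 118 and 113 CPM at 24 h and was not called (-0.065, adjusted p 0.328).

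Of 15 mitochondrially encoded genes 13 rose and 0 fell (median 0.64). MT-ND4 went from 16652 to 27472 CPM (0.72) and MT-CO1 from 24300.5 to 37595 CPM (0.63). The 2 that were not called were MT-ND6, the only messenger read from the light strand (0.34, edgeR adjusted p 0.162), and MT-RNR1, a ribosomal RNA (0.36, adjusted p 0.0704). Of 77 cytosolic ribosomal protein genes 62 rose and 0 fell (median 0.16), each by less than 1.5-fold, for example RPS4X (0.26) and RPS27 (0.26). With total counts 19 of the 77 rose, and with mitochondrially encoded genes left out before scaling 3444 genes were called in all. MALAT1, a nuclear long RNA, rose as well (0.32).

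The genes that rose were shorter than those that fell. The median exon length was 3746 bases for genes that rose, 6699 bases for genes that fell and 4091 bases for all genes tested. Among protein-coding genes alone it was 3982 and 6813.5 bases. Of 1463 antisense genes tested 59 rose and 16 fell, and of 1339 lincRNAs 50 rose and 21 fell, against 1539 higher and 1664 lower of 13525 protein-coding genes. With trends with exon length and GC content removed, 3306 genes were called, 2774 of them among the 3443, and 365 list genes. The ribosomal protein median was then 0.11 and the sterol median 0.28, and 7 p53 targets rose in place of 11. The part of transcript length in each single result was not tested. Of the 131 genes whose log2 fold change was recomputed in the alternative analyses, 39 have exons that overlap those of a gene on the opposite strand (PER3, IL6, TNFAIP3 and CA9 among them) and 13 those of a gene on the same strand (TERF2 among them). Whether counting used the strand is not given in the sources used here, so counts of such pairs and of antisense genes are uncertain.

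**Figure D3:**
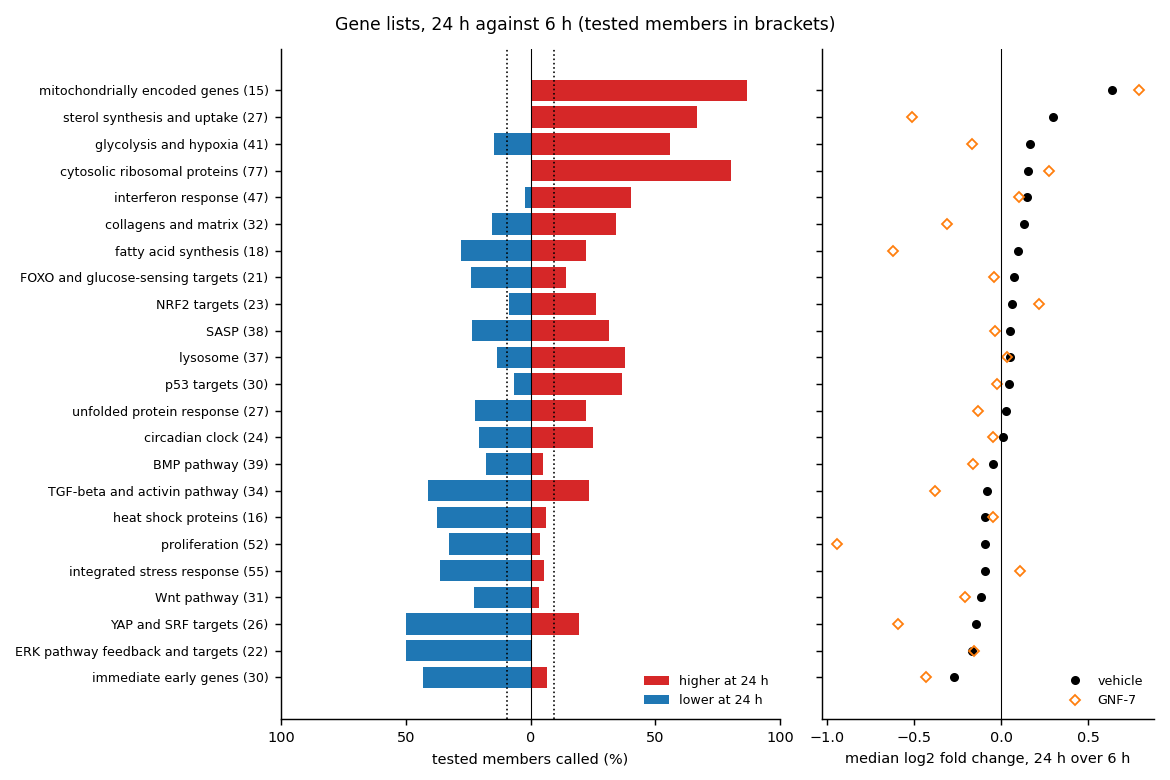
Left, share of the tested members of each gene list called higher (red) or lower (blue) at 24 h in vehicle. Dotted lines mark the shares over all genes tested (9.26% and 9.29%). Among protein-coding genes alone the shares were 11.4% and 12.3%. Right, the median log2 fold change of each list, 24 h over 6 h, in vehicle (black) and in GNF-7 (orange); sterol genes have medians of 0.30 and -0.51.

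Senescent cells in GNF-7 gave the same time comparison from 6 libraries that the vehicle comparison does not hold. There 23.1% of genes were called higher and 24.7% lower at 24 h. Of the 1724 genes that fell in vehicle, 1426 (82.7%) were also lower at 24 h in GNF-7 and 1170 (67.9%) were called so. Of the 1719 that rose in vehicle, 1104 (64.2%) were also higher in GNF-7, 812 (47.2%) called so, and 370 (21.5%) were called lower. Among genes not called in vehicle the direction was shared by 58.1% of 15120. Across genes, which are not independent replicates, the log2 fold changes had a Pearson r of 0.19 over 18563 genes and 0.40 over the 3443. The time difference itself differed between vehicle and GNF-7 for 30.8% of all genes and for 1762 (51.2%) of the 3443.

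For some genes the vehicle and GNF-7 changes were not shown to differ. BMP6 differed between the times by -1.59 in vehicle and -1.60 in GNF-7, SLC7A5 by -0.90 and -0.92, PER3 by 1.02 and 0.81, and SSPOP by 1.04 and 1.09. The tests of these 4 differences gave edgeR adjusted p of 0.957, 0.848, 0.111 and 0.884; SE of the differences were 0.144, 0.0529, 0.102 and 0.190. The clock genes kept their directions: of the 11 called in vehicle, each had the same sign in GNF-7, with NR1D2 near 0 there (0.058). Of all 3443 genes called in vehicle 73.5% had the same sign. For the clock genes BMAL1, DBP, NFIL3, BMAL2 and NR1D2 the size of the change did differ between vehicle and GNF-7. NOX4 (-1.89) and NR4A3 (-2.55) fell in GNF-7 by more than in vehicle (adjusted p of the difference 0.00680 and 1.20e-04).

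Other vehicle changes went the other way in GNF-7. Of 27 sterol genes 0 rose and 23 fell there (median -0.51 against 0.30), and the difference was called for 23. INSIG1 was higher at 24 h in vehicle (0.68) and lower in GNF-7 (-1.40). Glycolysis and hypoxia genes had a median of 0.16 in vehicle and -0.17 in GNF-7, with CA9 at 0.97 and -0.61. PLAT, which rose by 0.95 in vehicle, had a log2 fold change of 0.036 in GNF-7. Ribosomal protein genes (median 0.16 and 0.27) and mitochondrially encoded genes (0.64 and 0.79) rose in both. Proliferation genes, of which 17 fell in vehicle, fell in GNF-7 for 50 of 52 (median -0.94).

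**Figure D4:**
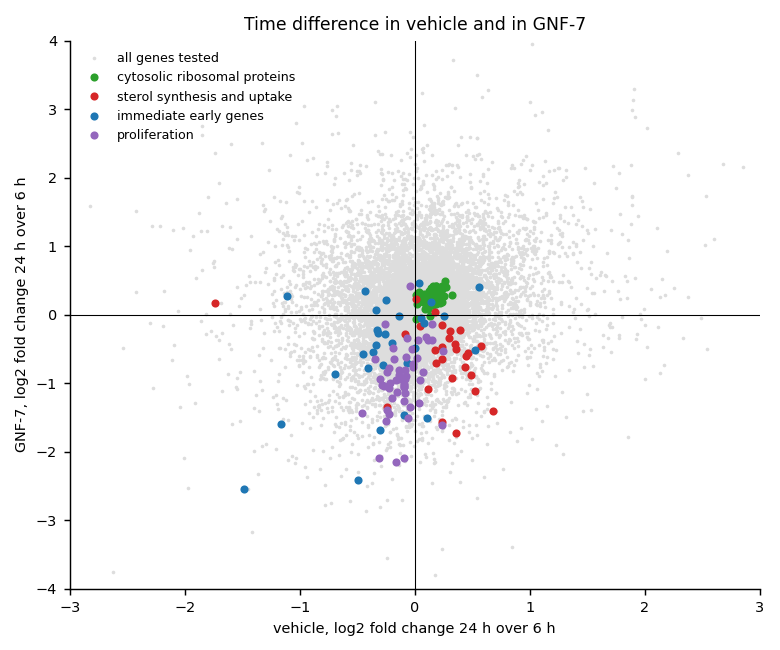
Log2 fold change, 24 h over 6 h, in vehicle (x) and in GNF-7 (y) for all genes tested (grey) and for 4 gene lists. Ribosomal protein genes (green) sit right of and above 0, sterol genes (red) mostly right of and below 0, and immediate early (blue) and proliferation genes (purple) mostly left of and below 0.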

How the data were processed

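RNA was sequenced in 15 HT-1080 libraries, 3 in each of 5 groups. The authors deposited raw counts of reads per Ensembl gene. Per the labels' protocols, library preparation was stranded and selected mRNA. The submitters' processing notes name STAR 2.7.9a, featureCounts 1.5.1 and GRCh38; the annotation release and the strand setting are not given in the sources used here, and coordinates are from GENCODE 29. Of 60673 rows 3 were unusable, since a single entry (ANK2) spanned several lines, and 99.55% of 60670 gene identifiers had a symbol. Counts were tested with edgeR 4.0.16 (R 4.3.3) after filterByExpr and TMM scaling, in 1 robust quasi-likelihood fit over all 15 libraries with a term per group. The contrast was vehicle 24 h minus vehicle 6 h, and p-values were adjusted over 18563 genes (Benjamini-Hochberg). The same fit gave the contrast in GNF-7 and the difference of the 2 contrasts. Errors are the SD over 3 libraries for CPM. For log2 fold changes the SE was derived from the test, as the size of the change over the square root of its F statistic. All errors cover these libraries only.

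Named genes are a fixed set (TERF2, BMP6, NR4A3, NOX4, PER3, IL6, CDKN1A, MKI67, EIF2AK4), the 12 largest rises and falls among called genes with a mean of at least 5 CPM and no overlap of replicates, and from each gene list the 5 smallest p and all members of role groups of up to 15 genes; other list members were named after their values were seen. The members and the lists were chosen with earlier results of these data known. Some list members are not reported here. Lists are described by counts and medians without a set test. Alternatives were RLE size factors, total counts, no filter, a filter at 5 CPM, DESeq2 1.42.0, limma 3.58.1 with voom, a replicate block, fits without the other groups, mitochondrially encoded genes left out and each library left out; removal of trends with length and GC content was chosen after seeing the data. No pair of libraries within a group agreed within sampling noise (chi-square test of counts).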

Additional observations from a re-analysis of the deposited data

Results flagged for a closer look

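The change from 6 h to 24 h differed between GNF-7 and vehicle for 5723 genes by a test of the difference itself (edgeR adjusted p under 0.05), among them 88 of the 131 named genes. Values below are the log2 fold change in GNF-7 minus that in vehicle, so that a negative value means a lower 24 h to 6 h ratio in GNF-7.

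Sterol and lipid genes gave -2.08 for INSIG1, -1.64 for MSMO1, -1.03 for STARD4, -1.02 for HMGCS1 and -0.61 for FDFT1. SREBF2 stood at -0.88, SCD at -1.01, FASN at -0.46 and the exporter ABCA1 at 0.38. INSIG1, MSMO1, STARD4, HMGCS1, FDFT1, SREBF2 and SCD rose in vehicle and fell in GNF-7, whereas FASN fell in both. Glycolysis and hypoxia genes followed with CA9 at -1.59, LDHAP7 at -1.48, LDHA at -0.88, ALDOC at -0.87, TPI1 at -0.61, PGK1 at -0.48, GAPDH at -0.40 and STC1 at -0.39, while NDRG1 was at 0.64.

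Genes of TGF-beta, activin and matrix had negative values too, with THBS1 at -2.02, INHBA at -1.80, FST at -1.33, CCN2 at -0.81, PMEPA1 at -0.77, TGFBR2 at -0.60 and SKIL at -0.56. Others of the kind were CCN5 (-2.48), COL11A1 (-2.28), COL1A1 (-0.71), COL4A1 (-0.55), CRIM1 (-0.97), ID3 (-0.80), ANKRD1 (-0.56) and AMOTL2 (-0.16). TGFBR2, CCN5, COL11A1 and COL1A1 had risen in vehicle, and the others of these 15 had fallen. SMAD7 (0.76), NKD1 (1.51) and GDF15 (0.13) were on the other side of 0.

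Genes with the largest vehicle falls or rises included NR4A3 (-1.07), NOX4 (-0.59), TNFRSF19 (-0.59), TRAF1 (-1.02), GRAMD1B (-0.68), BIRC3 (-1.43), TNFAIP3 (-0.51), FAM107B (-0.48) and IL7R (-1.42). CEMIP (0.40) and IL6 (0.76) fell by less in GNF-7. Among risers in vehicle PLAT was at -0.92, VSIR at -1.21, TXNIP at -0.72 and TLCD2 at 0.64. Clock genes in this set were BMAL1 (-0.52), DBP (-0.46), NFIL3 (-0.44), BMAL2 (-0.37) and NR1D2 (-0.24).

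For ERK and immediate early genes the values were -1.92 for NR4A2, -0.17 for HBEGF, -0.42 for DUSP5 and -0.23 for DUSP4, and above 0 for SPRY4 (0.86), ETV1 (0.52), ETV4 (0.84), ETV5 (0.71), JUN (0.47) and FOSL1 (0.40). Interferon and secreted genes gave -0.71 for IFITM3, -0.77 for IFITM2, -0.35 for IFIT1, -0.48 for IFI6, -0.24 for TAP1, -2.83 for CCL2, -0.54 for IGFBP6 and 0.73 for IL1B. CCL2 rose in vehicle (0.40) and fell in GNF-7 (-2.44), the widest gap among these 88 genes. Values for senescence and growth genes were -0.31 for CDKN1A, -1.30 for MKI67, -0.36 for TERF2, -0.66 for IGF1R and -0.34 for SOD2. The remaining genes were PHGDH (1.15), PSAT1 (0.69), SLC7A1 (-0.17), RAC2 (-0.18), MT-RNR1 (0.61), RPS27 (0.23), CTSD (0.26), CTSZ (-0.33) and HMOX1 (0.18).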

How the results depend on the processing

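The count of 3443 genes called between 24 h and 6 h in vehicle was 3456 with RLE size factors, 3366 with DESeq2, 3386 with voom, 2970 without a filter, 3569 with a filter at a mean of 5 CPM, 5019 with total counts and 3306 with length and GC trends removed. Leaving out 1 library gave 2535 (without 24 h replicate 3) to 2994 (without 24 h replicate 2), and 70.9% to 79.5% of the called genes were kept. Total counts kept 68.3%. None of the 131 named genes changed direction in any alternative that gave a value; over all alternatives 50 values of these genes lost a call and 5 gained one. With total counts the medians of p53, SASP, lysosome, NRF2, fatty acid, FOXO, unfolded protein response and clock genes changed sign. The clock median also did in 5 other analyses, those of FOXO and unfolded protein response genes without 24 h replicate 1, and that of sterol efflux genes without 6 h replicate 1. The p53, lysosome and collagen counts were mostly lower with total counts (3 higher and 10 lower, 3 and 13, and 3 and 7). The difference in mitochondrial share ranged from 4.28 to 6.08 points with 1 library left out and was 5.17 points over the genes tested.

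Replicate numbers were not taken as pairs in the vehicle comparison, where same-numbered libraries correlated at 0.11, 0.19 and -0.076 in their deviations from the group means. In GNF-7, 24 h against 6 h, the same check gave 0.27, 0.26 and 0.12, and between vehicle and GNF-7 at 24 h 0.16, 0.13 and 0.10, each over 0.1. The block moved the GNF-7 count from 8870 to 9018 genes and that of the difference from 5723 to 5921. With the replicate block 3711 genes were called in vehicle, and 4431 in a block fit of only the groups compared, which without the block called 3769. Not every vehicle library correlated best with its own number. Depth limits the low genes: 99 genes passed 2-fold, at a median of 0.557 CPM against 11.7 CPM for all genes tested.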

Other observations

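Collagen and matrix genes were called in both directions. Over all genes 9.26% rose and 9.29% fell, the shares to set beside each count in this paragraph. Of 32 collagen and matrix genes tested, 11 rose (34.4%) and 5 fell (15.6%), with a median of 0.13. Leaving out 1 library gave 6 higher and 4 lower (6 h replicate 3 or 24 h replicate 3), 7 and 5 (6 h replicate 2 or 24 h replicate 1) or 11 and 3 (6 h replicate 1 or 24 h replicate 2). COL4A1, a basement membrane collagen, was at 352, 319.8 and 340.2 CPM at 6 h and 258, 243 and 247 CPM at 24 h (-0.44, edgeR adjusted p 1.42e-13), and COL1A1, a fibrillar collagen, was at 9.47, 10.5 and 9.16 and 11.7, 13.7 and 13.7 CPM (0.42, adjusted p 0.00643). COL11A1 rose from 0.154 to 0.596 CPM (1.92), a very low level. Lysosomal hydrolases rose for 12 of 24 and fell for 2, for example CTSD and CTSZ, cathepsins D and Z (0.23 and 0.31). Over all 37 lysosomal genes 14 rose and 5 fell, against 9 and 5 without 6 h replicate 2 or 24 h replicate 1 and 12 and 3 without 6 h replicate 1. Of 16 heat shock protein genes 6 fell (37.5%) and 1 rose (6.25%), with HSPH1 at -0.34. Of 31 Wnt pathway genes 7 fell (22.6%) and 1 rose (3.23%). The falls include TNFRSF19 (-1.33), named above among the largest falls, and NKD1, a feedback inhibitor (-0.97). Both counts rest on single libraries: 3 heat shock genes fell and 0 rose without 6 h replicate 3 or 24 h replicate 3, and 4 fell and 0 rose without 6 h replicate 2. The rise was also lost without 6 h replicate 1 or 24 h replicate 1, with 5 lower. Of the Wnt genes 3 fell without 6 h replicate 1 or 24 h replicate 2, 4 without 6 h replicate 3, 4 with 0 higher without 24 h replicate 1, and 6 with 0 higher without 6 h replicate 2. With total counts 11 and 13 fell and 0 rose. Of 23 NRF2 targets 6 rose (26.1%) and 2 fell (8.70%), with HMOX1, heme oxygenase 1, at 0.39. Only 3 rose without 24 h replicate 1, and with total counts 2 rose and 10 fell. Of 27 unfolded protein response genes 6 rose and 6 fell (22.2% each), with the factor XBP1 at -0.30. The counts were 1 and 6 without 6 h replicate 2, 2 and 5 without 24 h replicate 1, 3 and 6 without 24 h replicate 3, and 0 and 12 with total counts. Of 21 FOXO and glucose-sensing targets 3 rose (14.3%) and 5 fell (23.8%), and with total counts 1 rose and 7 fell. KLF15 was at -1.18, a call lost in 4 of 16 alternative analyses. Its level was very low, with 25, 32 and 22 counts in the 6 h libraries and 21, 5 and 7 in the 24 h libraries.

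Genes of retinoid metabolism were noticed among those that changed at least 2-fold and are given as chosen after their values were seen. DHRS3, which reduces retinal and is known to respond to retinoic acid, was at 2.72, 1.71 and 2.46 CPM at 6 h and 6.41, 5.40 and 5.77 CPM at 24 h (1.36, SE 0.164, edgeR adjusted p 2.58e-09). CYP26B1, which degrades retinoic acid, was at 1.46, 1.39 and 1.53 and 3.64, 3.39 and 3.13 CPM (1.22, SE 0.229, adjusted p 4.62e-05). Both rose in GNF-7 too, by 1.57 and 1.79. CCN5, a matricellular protein chosen in the same way, rose from 1.5 to 3.33 CPM in vehicle (1.15) and was lower at 24 h in GNF-7 (-1.33).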
